A study of Homo sapiens with 6 samples.

Results

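The circadian clock genes CLOCK, ARNTL, PER1, PER2, PER3, CRY1, CRY2, NR1D1, NR1D2 and DBP were read as 10 rows, matched by gene symbol alone. The deposited table of raw counts held 27470 genes. The 10 genes were chosen with earlier results of these data known. ARNTL is named BMAL1 in current annotations. The cells, 22Rv1-ABHD5, derive from 22Rv1, an established prostate cancer line able to grow without androgen, infected with a lentivirus carrying ABHD5 behind a doxycycline (Dox)-inducible promoter and then selected with G418. Cells labelled control were grown without Dox (n = 3 libraries) and cells labelled OE, for overexpression, were grown with Dox (n = 3), all for 48 h. Both conditions carried the transgene, and no library of parent cells with Dox was used here, so effects of Dox and of ABHD5 cannot be told apart. For the sequenced cells the labels and the study's methods state no hour of harvest and no step that synchronised them, and the methods give a Dox dose for a cell growth assay only. The labels do not say whether the 3 libraries of a condition came from separate cultures, so p-values measure the spread between these libraries, which may be technical.

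The mammalian clock is a transcriptional loop that runs in most cells with a period of about a day. The proteins CLOCK and ARNTL bind as a pair to E-box motifs and switch on the PER and CRY genes, whose proteins accumulate and then block the pair. A further loop runs through NR1D1 and NR1D2, which encode REV-ERBα and REV-ERBβ, repressors of ARNTL, and through the ROR receptors, which compete with them for the RORE motif. DBP is an output of the loop that activates genes with D-box motifs, among them PER genes. In unsynchronised cultures the cells can be at different phases, and a bulk library gives their average.

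Libraries held 3394672 to 7271771 counts on genes. Of the reads listed, 32.5% to 34.6% fell on no gene without Dox and 35.6% to 39.5% with Dox, and whether this share had a part in any result was not tested. Levels below are CPM, a gene's counts over the library's total on a fixed common scale, after TMM normalization, a scaling by the trimmed mean of gene ratios. The libraries were made from the 3ʹ ends of transcripts and the levels are not divided by length, so each gene is compared only with itself. ABHD5, the induced gene, was at 61.4 ± 2.999 CPM without Dox and 116.1 ± 21.3 CPM with Dox (SD, n = 3 each), or 0.91 on the log2 scale, and it passed the quasi-likelihood test of edgeR (edgeR adjusted p = 0.000198). This p is adjusted over the 12233 tested genes by the method of Benjamini and Hochberg. Of 9 prostate luminal markers 9 were tested, with a median log2 fold change of -0.35, and 4 of them were lower with Dox, among them KLK2, KRT18 and TMPRSS2 (log2 fold changes -1.69, -0.57 and -1.06). Their summed level was 1460 to 1534 CPM without Dox and 1054 to 1119 CPM with Dox. Of 6 markers of leukocytes, fibroblasts and endothelium, PTPRC, COL1A2, PECAM1 and VWF had 0 or 1 counts in each library, CD68 had 3 to 10, and COL1A1, from 5 to 58, was higher with Dox by 1.22 on the log2 scale (edgeR adjusted p = 0.0313). Its libraries overlapped, with 3.66 CPM the highest without Dox and 3.62 CPM the lowest with Dox. The COL1A1 call was lost with DESeq2 (adjusted p = 0.0972), without replicate 2 or 3 without Dox (edgeR adjusted p = 0.116 and 0.122) and without replicate 1 or 3 with Dox (0.0590 and 0.166). These 6 summed to 3.41 to 4.44 CPM without Dox and 4.73 to 8.28 CPM with Dox. Whether either marker list had a part in the results below was not tested.

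No core clock gene passed the test between conditions. Of the 10 genes, 9 had enough counts to be tested and 0 of the 9 had an adjusted p under 0.05 (edgeR, over 12233 tested genes), while 25.5% of all tested genes did, 11.9% higher and 13.7% lower with Dox. With DESeq2 the count was also 0. At an unadjusted p under 0.05 in edgeR it was 1, CLOCK, or 11.1% of the 9, against 36.8% of all tested genes. The direction of calls over all genes depended on scaling, with 1451 higher and 1674 lower after TMM and 2179 higher and 1136 lower on library totals alone. The median absolute log2 fold change was 0.19 over the 9 clock genes and 0.30 over all tested genes. The median log2 fold change was 0.15 against 0.02 for all tested genes. Of the 9, 7 were above 0 (77.8%, against 51.5% of all tested genes), and PER1 and CRY1 were below 0. For each of the 9 genes the 95% interval of the fold change lay within 2-fold in either direction, as it did for 72.1% of all tested genes. The widest was that of PER3, from 0.63-fold to 1.96-fold. In 3 of the 9, CLOCK, PER1 and CRY2, the libraries did not overlap between conditions, while 39.5% of all tested genes did not overlap. In bulk libraries fewer cells expressing a gene and less of its RNA per cell cannot be told apart.

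**Figure D1:**
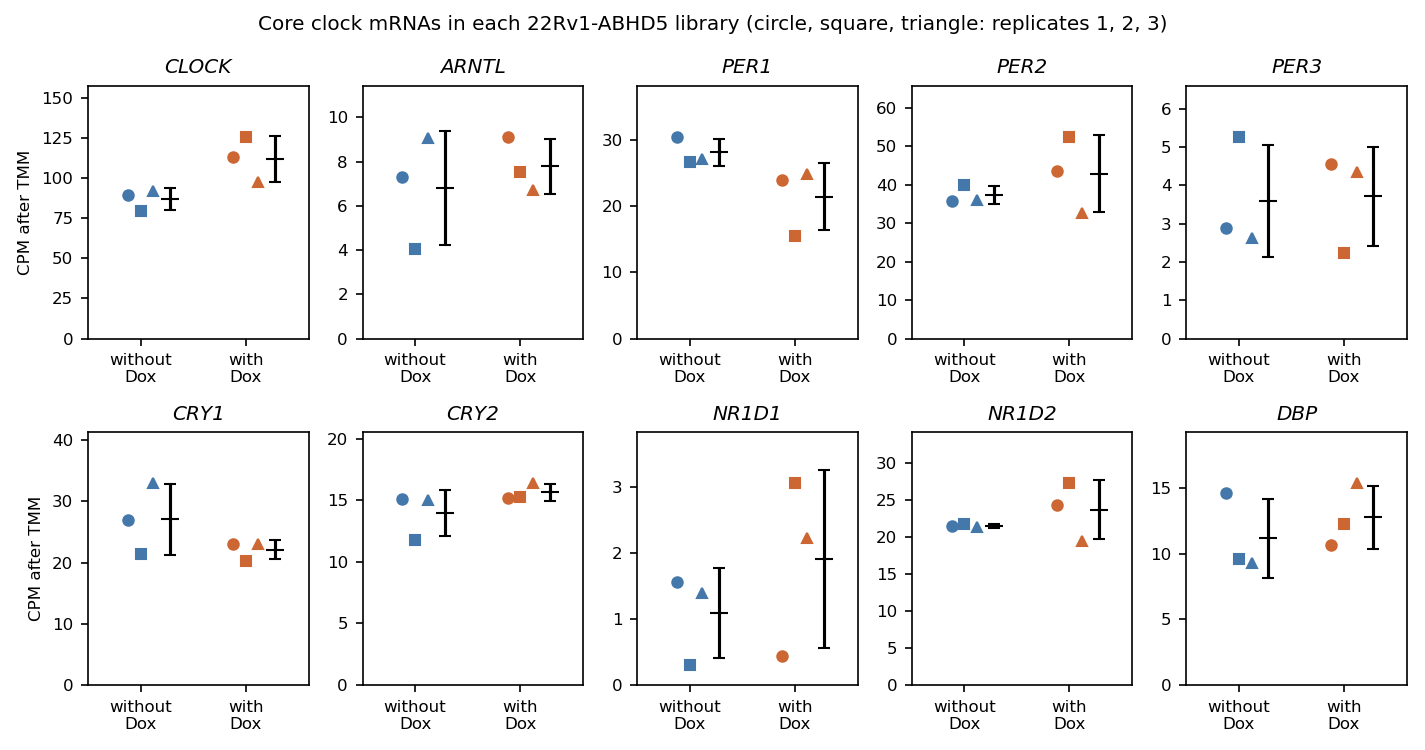
CPM after TMM normalization of each core clock gene (y axis, from 0, a separate scale for each gene) in the 3 libraries without Dox (blue) and the 3 with Dox (orange); black marks give the mean and SD. The libraries of the conditions are separate for CLOCK (79.4 to 91.8 against 97.2 to 126 CPM), PER1 and CRY2 and overlap for the other genes.

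CLOCK, on the minus strand of chromosome 4 of hg38 from 55427903 to 55546909, encodes the DNA-binding partner of ARNTL. It was at 89.3, 79.4 and 91.8 CPM in replicates 1, 2 and 3 without Dox and at 113, 126 and 97.2 CPM with Dox. Every library with Dox was above every library without Dox. The mean went from 86.8 ± 6.58 CPM to 112 ± 14.3 (SD, n = 3 each), or 0.36 on the log2 scale (standard error, SE, 0.13, 95% interval 0.08 to 0.64), and missed the threshold (edgeR adjusted p = 0.0587; 0.0130 to 0.202 over 13 alternative settings). CLOCK was past the threshold with upper-quartile normalization (0.41, edgeR adjusted p = 0.0306), on library totals alone (0.48, edgeR adjusted p = 0.0130), with at least 10 counts demanded in every library (0.38, edgeR adjusted p = 0.0453) and without replicate 3 with Dox (0.45, edgeR adjusted p = 0.0200). Library totals alone shifted the median over all tested genes, as log2 fold change, from 0.02 to 0.14. Relative to that median CLOCK stood at 0.34 under both scalings. A change of scaling shifts all genes nearly alike, so this agreement is no test of CLOCK.

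ARNTL lies on the plus strand of chromosome 11 from 13276652 to 13387266 and encodes the other member of the pair. It was sparsely counted, with 28, 13 and 52 reads without Dox and 42, 27 and 51 with Dox. In CPM these were 7.31, 4.03 and 9.08 without Dox and 9.13, 7.51 and 6.70 with Dox. The libraries overlapped, and replicate 2 without Dox was the lowest of the 6. ARNTL had a log2 fold change of 0.13 (95% interval -0.50 to 0.77, edgeR adjusted p = 0.791), and it was -0.11 without that library. Within libraries the log2 ratio of ARNTL to CLOCK was -3.64 ± 0.45 without Dox and -3.77 ± 0.21 with Dox (SD, n = 3 each), a difference of -0.12 (two-sided exact permutation test, p = 0.7). With 3 libraries against 3 the smallest p of this exact permutation test is 0.1.

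A RORE core is found in the ARNTL promoter, taken here as 250 bases before to 50 bases after a RefSeq transcript start (GRCh38.p14). The core TAGGTCA, on either strand, occurs in 1.85% of 35116 such promoters. It is shown in capitals, on the plus strand of chromosome 11 from 13277809 to 13277837, because this motif is the one through which REV-ERB and ROR receptors act on ARNTL. The other member with this core was CRY2.

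ARNTL: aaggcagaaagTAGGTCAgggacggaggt

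The PER genes encode the period proteins, which carry CRY into the nucleus and repress CLOCK and ARNTL. PER1, on the minus strand of chromosome 17 from 8140472 to 8156506, was at 30.6, 26.7 and 27.2 CPM without Dox and 23.9, 15.6 and 24.8 CPM with Dox. All 3 libraries with Dox were below all 3 without Dox, with the lowest value in replicate 2 with Dox. The mean was 28.2 ± 2.10 CPM without Dox and 21.4 ± 5.09 with Dox (SD, n = 3 each), or on the log2 scale -0.37 (SE 0.19, 95% interval -0.77 to 0.03). PER1 did not pass the threshold (edgeR adjusted p = 0.168; 0.0959 to 0.441 over 13 alternative settings), and without replicate 2 with Dox the value was -0.21.

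PER2, on the minus strand of chromosome 2 from 238244044 to 238290102, was at 35.8, 40.01 and 36.1 CPM without Dox and 43.5, 52.6 and 32.7 CPM with Dox. The highest and the lowest of the 6 values were both with Dox. Its log2 fold change was 0.19 (95% interval -0.18 to 0.55, edgeR adjusted p = 0.470). PER3, on the plus strand of chromosome 1 from 7784291 to 7845177, had 11, 17 and 15 reads without Dox and 21, 8 and 33 with Dox. These came to 2.87, 5.27 and 2.62 CPM and to 4.57, 2.23 and 4.33 CPM, and the libraries overlapped. For PER3 the fold change was 0.15 on the log2 scale (95% interval -0.67 to 0.97, edgeR adjusted p = 0.822), and -0.07 without replicate 3 without Dox.

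PER1 and PER2 pointed in opposite directions, but their difference was not larger than the spread between libraries. The log2 ratio of PER1 to PER2 was -0.22, -0.58 and -0.40 without Dox and -0.85, -1.72 and -0.39 with Dox. The conditions overlapped, and the difference of -0.59 gave p = 0.3 (two-sided exact permutation test). For PER1 to PER3 the difference was -0.46 (p = 0.4, same exact test) and for PER2 to PER3 it was 0.13 (p = 0.9, same exact test).

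The promoters of the PER genes are shown where they hold the letters of a clock motif, since E-boxes are known to bind CLOCK with ARNTL and D-boxes to bind DBP. The E-box CACGTG occurs in 7.26% of the promoters of all genes and was found in PER1, on the minus strand of chromosome 17 from 8152532 to 8152617. The D-box, searched as TTATGTAA and TTACGTAA on either strand, occurs in 1.01% of all promoters. PER2 held it on the minus strand of chromosome 2 from 238288595 to 238288624, and PER3 on the plus strand of chromosome 1 from 7784074 to 7784161. Capitals mark the motif. A match is a description of the sequence and not evidence that a factor was bound.

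PER1: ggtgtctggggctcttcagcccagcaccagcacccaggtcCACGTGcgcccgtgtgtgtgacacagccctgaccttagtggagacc

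PER2: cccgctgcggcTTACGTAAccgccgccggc

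PER3: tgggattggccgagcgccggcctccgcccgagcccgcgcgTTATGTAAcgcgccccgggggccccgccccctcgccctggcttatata

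CRY1 and CRY2 encode the cryptochromes, the strongest repressors of the CLOCK and ARNTL pair. CRY1, on the minus strand of chromosome 12 from 106991364 to 107093549, was at 26.9, 21.4 and 33.0 CPM without Dox and 23.1, 20.3 and 23.0 CPM with Dox. The ranges overlapped, and the libraries with Dox lay closer together. CRY1 differed by -0.30 on the log2 scale (SE 0.19, 95% interval -0.69 to 0.08, edgeR adjusted p = 0.249). CRY2, on the plus strand of chromosome 11 from 45847118 to 45883248, was at 15.15, 11.8 and 15.0 CPM without Dox and 15.2, 15.3 and 16.4 CPM with Dox. These ranges met without overlapping, by a margin smaller than the spread of either condition. CRY2 differed by 0.16 (95% interval -0.27 to 0.58, edgeR adjusted p = 0.620). The ratio of CRY1 to CRY2 was lower with Dox in each library. On the log2 scale it was 0.81, 0.83 and 1.11 without Dox and 0.58, 0.40 and 0.47 with Dox, a difference of -0.43 (two-sided exact permutation test, p = 0.1, the smallest that 3 against 3 can give, and 0.7 after Benjamini-Hochberg adjustment over the 7 ratios computed).

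NR1D1 encodes REV-ERBα and lies on the minus strand of chromosome 17 from 40092793 to 40100589. It was close to the limit of detection, with 6, 1 and 8 reads without Dox and 2, 11 and 17 with Dox. Replicate 2 without Dox and replicate 1 with Dox were at or under 3 counts, taken here as that limit (0.413 to 0.884 CPM on library totals), and the conditions overlapped. NR1D1 did not pass edgeR's filter on low counts. Fitted without a filter it had a log2 fold change of 0.69 (95% interval -0.54 to 1.92, edgeR adjusted p = 0.526), so the interval reached 3.77-fold at this depth. The exons of NR1D1 share 473 bases with those of THRA, a thyroid hormone receptor gene on the opposite strand. Whether reads were counted by strand is not stated. It is therefore not known whether reads in this stretch went to NR1D1, to THRA or were set aside as ambiguous. THRA rose from 11.7 ± 2.99 to 21.0 ± 4.197 CPM (SD, n = 3 each), with a log2 fold change of 0.83 (edgeR adjusted p = 0.0127).

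NR1D2 encodes REV-ERBβ and lies on the plus strand of chromosome 3 from 23945286 to 23980617. It was at 21.4, 21.7 and 21.3 CPM without Dox and 24.4, 27.3 and 19.4 CPM with Dox. The libraries without Dox were close together, and those with Dox lay on either side of them. NR1D2 differed by 0.12 on the log2 scale (SE 0.18, 95% interval -0.26 to 0.51, edgeR adjusted p = 0.665). Between the REV-ERB genes, the log2 ratio of NR1D1 to NR1D2 differed by 0.38 (two-sided exact permutation test, p = 0.5), and the ratio of NR1D1 to its target ARNTL by 0.27 (p = 0.8, same exact test). NKIRAS1 lies over NR1D2 on the opposite strand and shares no exon bases with it. NKIRAS1 rose by 0.62 on the log2 scale (edgeR adjusted p = 0.0363).

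One NR1D2 promoter held a D-box and a pair of E-boxes within a short stretch, and it is shown because it held both of these motifs. The first sequence has the D-box in capitals, there in its reverse complement, on the plus strand of chromosome 3 from 23945887 to 23945974, and the second has the downstream E-box in capitals, from 23945976 to 23946061.

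NR1D2 D-box: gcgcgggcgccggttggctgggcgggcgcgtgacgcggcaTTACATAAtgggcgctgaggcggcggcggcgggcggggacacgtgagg

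NR1D2 E-box: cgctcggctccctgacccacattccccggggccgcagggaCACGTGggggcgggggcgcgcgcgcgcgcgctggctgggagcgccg

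DBP, the D-box activator, lies on the minus strand of chromosome 19 from 48630030 to 48637379. It was at 14.6, 9.61 and 9.25 CPM without Dox and 10.7, 12.2 and 15.4 CPM with Dox. The highest value without Dox was above 2 of the 3 values with Dox. DBP differed by 0.22 on the log2 scale (SE 0.25, 95% interval -0.30 to 0.74, edgeR adjusted p = 0.560). DBP shares 661 exon bases with SPHK2 on the opposite strand, for which the log2 fold change was 0.24 (edgeR adjusted p = 0.422). CLOCK shares 76 exon bases with TMEM165, which had -0.10 (edgeR adjusted p = 0.60), and PER3 shares 868 with UTS2, which was listed at 0 in each library, as was MIR6883 within PER1. Further unnamed genes over ARNTL, PER1, PER2, PER3 and CRY1 were not used here. Across the 9 tested members the median SD of log2 CPM within a condition was 0.25, against 0.21 for all tested genes.

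**Figure D2:**
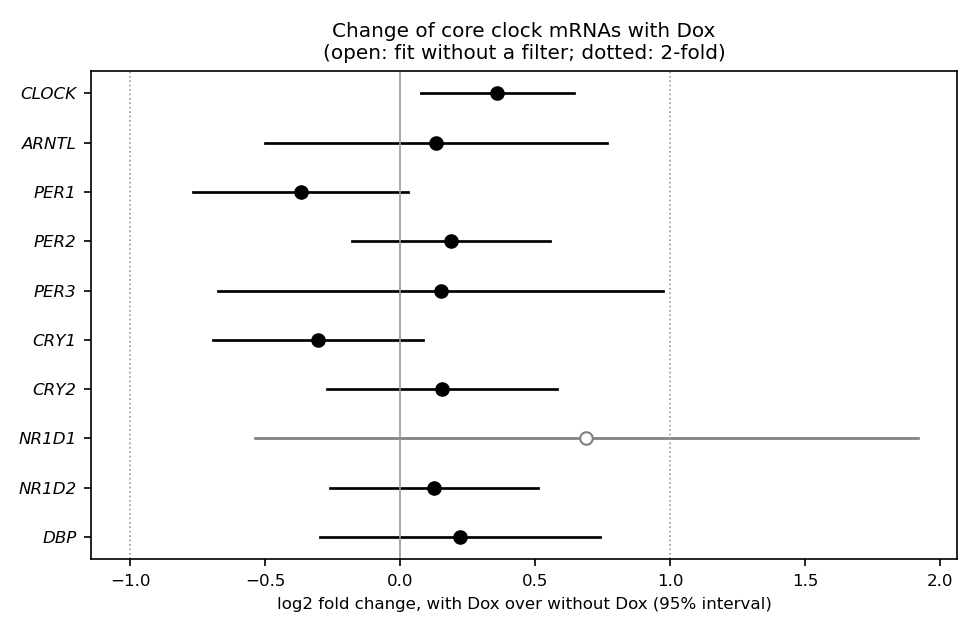
The log2 fold change with Dox over without Dox (x axis) of each core clock gene (rows), with bars for the 95% interval from edgeR; dotted lines mark 2-fold, and NR1D1, open, comes from the fit without a filter. Each of the 9 filled intervals stays within 2-fold, and that of CLOCK (0.08 to 0.64) is the one that does not reach 0.

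Around the core loop, ARNTL2 and TIMELESS were lower with Dox. A list of 13 other loop factors held the paralogs, partners and competitors of the core genes, and 11 of them were tested. Of these, 1 was higher and 2 were lower at an adjusted p under 0.05, which is 27.3% of the 11, near the 25.5% of all tested genes, and the median over the 11, as a log2 fold change, was 0.17. ARNTL2, the paralog of ARNTL that also pairs with CLOCK, was at 10.7, 15.2 and 16.1 CPM without Dox and 2.61, 3.62 and 3.68 CPM with Dox. All libraries with Dox were far below those without. ARNTL2, named BMAL2 on chromosome 12 from 27332836 to 27425289, fell by 2.07 on the log2 scale (SE 0.28, 95% interval -2.67 to -1.47, edgeR adjusted p = 3.66e-05), and it passed in 13 of 13 alternative settings (log2 fold change -2.24 to -1.94). The interval of ARNTL itself, -0.50 to 0.77, did not reach that of ARNTL2. This difference between the paralogs was noticed after their values were seen and was not tested.

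RORA, a ROR receptor that activates through the RORE in competition with REV-ERB, was at 7.74 ± 0.39 CPM without Dox and 11.7 ± 1.62 with Dox (SD, n = 3 each) and missed the threshold (log2 fold change 0.61, edgeR adjusted p = 0.0699). NFIL3, a D-box repressor that opposes DBP, was at 4.89 ± 0.21 and 8.41 ± 2.04 CPM (SD, n = 3 each) and also missed it (0.78, edgeR adjusted p = 0.0571). RORA and NFIL3 were chosen for mention after their values were seen.

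TIMELESS, which in mammals serves mainly at the DNA replication fork, was at 213, 248 and 223 CPM without Dox and 145, 163 and 137 CPM with Dox. These ranges were well apart. TIMELESS had a log2 fold change of -0.62 (SE 0.12, edgeR adjusted p = 0.00132) and passed in 13 of 13 alternative settings. BHLHE40 and HLF, with 0 to 4 and 0 to 7 reads, were not tested. NPAS2, RORB, BHLHE41, CIART, CIPC and TEF did not pass.

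**Figure D3:**
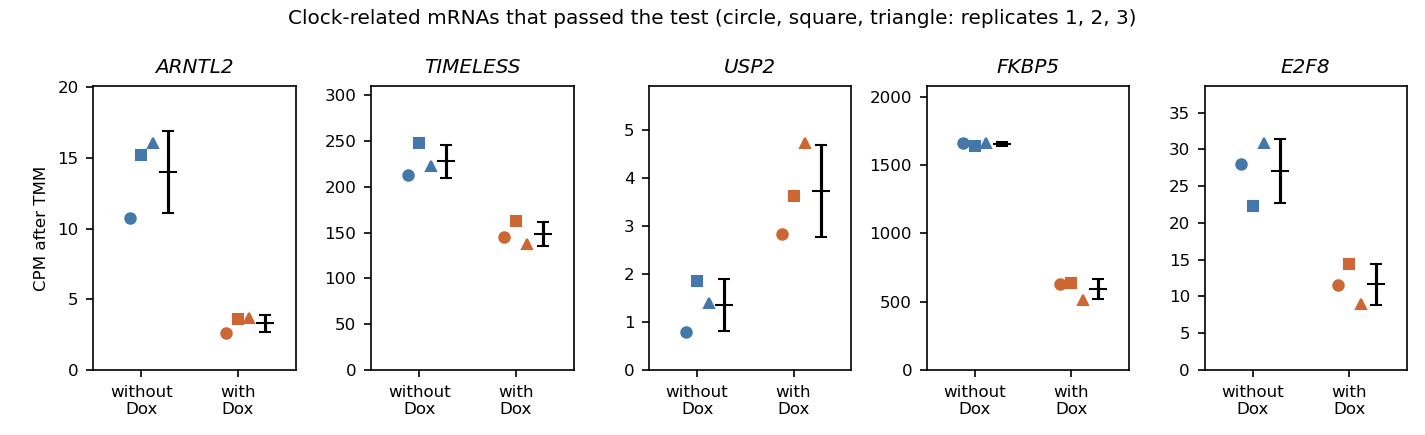
CPM after TMM normalization (y axis, from 0, a separate scale for each gene) of ARNTL2, TIMELESS, USP2, FKBP5 and E2F8 in the 3 libraries without Dox (blue) and the 3 with Dox (orange); black marks give the mean and SD. The 5 genes were chosen for drawing from those that passed the test. No library with Dox overlaps a library without Dox for any of the 5, as for 39.5% of all tested genes.

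Enzymes that modify clock proteins were mostly not past the test. Of 23 kinases, phosphatases and ubiquitin enzymes 21 were tested, with 2 higher, 0 lower and a median log2 fold change of 0.06. This is 9.52% called, against 25.5% of all tested genes. USP2, a deubiquitinase of PER1 and CRY1 and itself a clock output, had 3, 6 and 8 reads without Dox and 13, 13 and 36 with Dox, with no overlap. Its antisense gene USP2-AS1 had 0 to 3 reads in each library. USP2 rose by 1.501 on the log2 scale (SE 0.44, edgeR adjusted p = 0.0180), and lost its call without replicate 1 or 3 without Dox (edgeR adjusted p = 0.103 and 0.0662) or replicate 3 with Dox (edgeR adjusted p = 0.0839) and with DESeq2 (its adjusted p = 0.0850). CSNK1D, the casein kinase that marks PER proteins for degradation, went from 90.8 ± 5.78 CPM to 118 ± 15.7 (SD, n = 3 each), or 0.38 on the log2 scale (edgeR adjusted p = 0.0467). This call was lost in 5 of the 6 fits that left out a library, all but that without replicate 2 with Dox (edgeR adjusted p = 0.199, 0.114 and 0.0624 without replicates 1, 2 and 3 without Dox, 0.115 and 0.170 without replicates 1 and 3 with Dox), without a filter (0.0653) and with DESeq2 (0.0621). CSNK1E, its close paralog, was listed at 0 in each library, and the annotation holds a readthrough gene over it. FBXL21, which the annotation used here names FBXL21P, was also listed at 0. PRKAA1 and PRKAA2, the AMPK catalytic subunits that phosphorylate cryptochromes, had log2 fold changes of -0.33 and 0.15 and did not pass (edgeR adjusted p = 0.0919 and 0.524).

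Among 13 coregulators of the clock, 12 were tested, 1 was lower and 0 were higher, with a median log2 fold change of 0.03. This is 8.33% called, against 25.5% of all tested genes. The number called was 0 to 3 over the alternative settings. NCOR1, a corepressor that REV-ERB proteins recruit, and HDAC3, the deacetylase that comes with it, had log2 fold changes of 0.03 and 0.04. PPARGC1A, with 1 to 5 reads, was not tested.

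Genes of the signals that reset the clock moved in both directions. Of 15 genes 14 were tested, 3 were higher and 4 lower, and the median log2 fold change was 0.21. The 7 are 50% of the 14, against 25.5% of all tested genes (11.9% higher and 13.7% lower). The number called was 3 to 9 over the alternative settings and 3 to 7 with a library left out. The list was chosen with earlier results of these data known, so this share is no test of it. FKBP5, a glucocorticoid target, was at 1658, 1637 and 1663 CPM without Dox and 631, 638 and 510 CPM with Dox, with no overlap. It fell by 1.48 on the log2 scale (SE 0.13, edgeR adjusted p = 2.84e-07) and passed in 13 of 13 alternative settings. SRF, which carries the serum signal to PER genes, fell by 0.84 (edgeR adjusted p = 9.91e-04), and EGR1, an immediate early gene, rose by 0.89 (edgeR adjusted p = 0.00103), each in 13 of 13 alternative settings. The glucocorticoid target TSC22D3 had -0.49 (edgeR adjusted p = 0.0328) and FOS -1.23 (edgeR adjusted p = 0.0262).

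CRTC1, a CREB coactivator, had a log2 fold change of 0.74 (edgeR adjusted p = 0.0252) and JUNB, whose libraries overlapped between conditions, 0.72 (edgeR adjusted p = 0.0327). The calls of TSC22D3, FOS, CRTC1 and JUNB were each lost in some fits with a library left out. The number of all genes called in such fits was 2181 to 3112, against 3125. Whether this had a part in the lost calls was not tested. The log2 fold changes of TSC22D3, FOS, CRTC1 and JUNB in the 6 such fits were -0.59 to -0.34, -1.51 to -1.01, 0.52 to 0.97 and 0.36 to 0.93. Without replicate 1 without Dox the adjusted p was 0.05003 for TSC22D3, 0.106 for FOS and 0.0821 for CRTC1, and without replicate 2 without Dox it was 0.127 for JUNB. Without replicate 3 without Dox it was 0.189, 0.147, 0.141 and 0.0528 for TSC22D3, FOS, CRTC1 and JUNB, and without replicate 1 with Dox it was 0.119, 0.0888, 0.101 and 0.0628. TSC22D3 also lost its call without replicate 2 with Dox (0.0549), and FOS and JUNB without replicate 3 with Dox (0.0543 and 0.222). DESeq2 gave 0.0532 for TSC22D3 and 0.0830 for FOS, and TSC22D3 was at 0.0544 with upper-quartile normalization and 0.10 on library totals alone. NR3C1, the glucocorticoid receptor itself, had a log2 fold change of 0.29 and did not pass (edgeR adjusted p = 0.182). SIK1 was listed at 0.

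Of 13 genes taken as outputs of the clock 9 were tested, 1 was higher (USP2, which also stands among the enzymes) and 1 lower, with a median log2 fold change of -0.18. This is 22.2% called, near the 25.5% of all tested genes. E2F8, a repressor of cell cycle genes, was at 27.9, 22.3 and 30.9 CPM without Dox and 11.5, 14.5 and 8.93 CPM with Dox. It fell by 1.26 (SE 0.22, edgeR adjusted p = 3.18e-04) and passed in 13 of 13 alternative settings. NAMPT, the NAD synthesis enzyme whose E-box drive is a textbook clock output, was at 52.4 CPM without Dox and 53.4 with Dox, a log2 fold change of 0.03 (95% interval -0.32 to 0.37). WEE1, the mitotic kinase under E-box control, had -0.26 (95% interval -0.55 to 0.04) and NOCT, a phosphatase named nocturnin, -0.19 (95% interval -0.78 to 0.40), and neither passed. ELOVL3, GYS2 and HLF, with 7 or fewer reads in any library, were among those not tested. Genes of the lists named without a call, among them NAMPT, WEE1, NOCT, NCOR1, HDAC3, NR3C1, PRKAA1 and PRKAA2, lie outside the rule for named genes and were chosen after their values were seen.

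**Figure D4:**
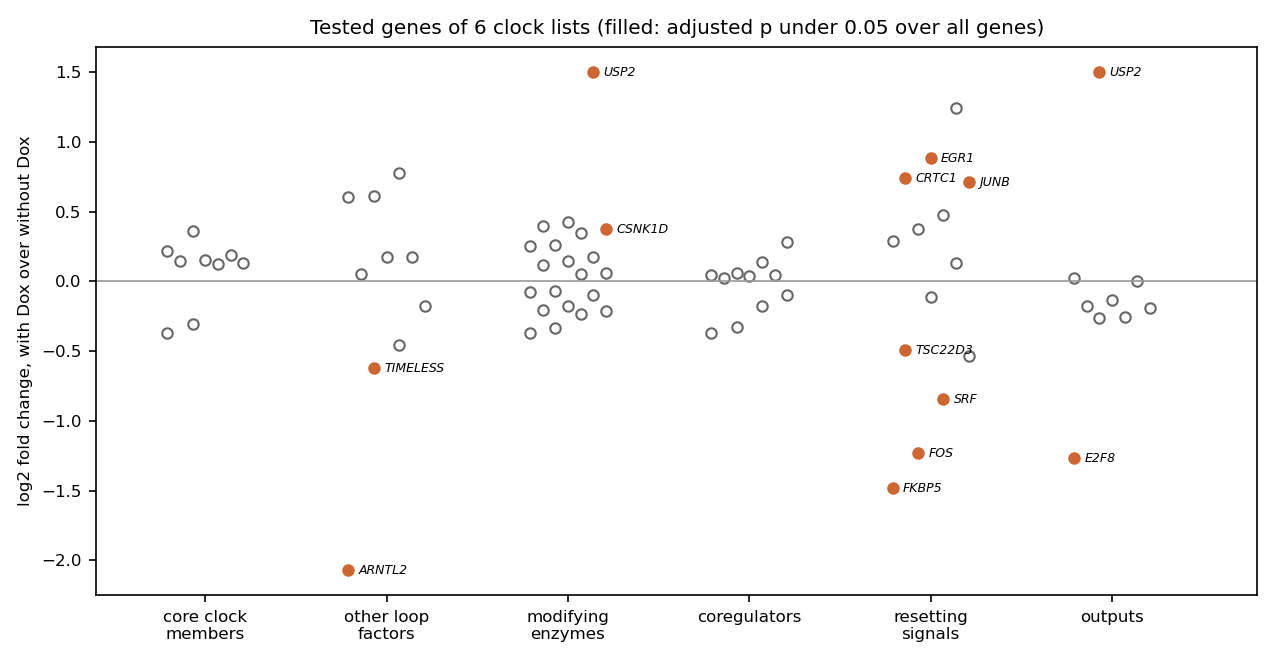
The log2 fold change with Dox over without Dox (y axis) of tested genes, in 6 lists (x axis; the place within a list has no meaning, and 2 called genes not reported by name are not drawn); filled, named points passed the test at 0.05. The 9 core members lie between -0.37 and 0.36 with none filled, while USP2 (1.501) and ARNTL2 (-2.07) stand at the top and bottom of the plot.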

How the data were processed

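RNA was measured by QuantSeq 3ʹ libraries of 22Rv1-ABHD5 cells, 3 without Dox and 3 with Dox. The kit is FWD in the labels and REV in the paper. Reads of 100 bp were aligned by the authors with STAR against hg38, and raw read counts under gene symbols were deposited; the submitters' processing notes also list CASAVA 1.8.2, FastQC, HTSeq and edgeR. Annotation and use of strand are not given in the sources used here. The deposited normalized values of single libraries were not used. Ambiguous reads were 3.05% to 3.37% of reads listed and, with reads on no gene, stayed out of library sizes.

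Counts were tested with edgeR 4.0.16 (TMM, filterByExpr, quasi-likelihood) in R 4.3.3, with DESeq2 1.42.0 as an alternative, and the script was tested on simulated data. Standard errors and intervals were derived from the F statistic. Log2 ratios within a library used CPM plus 0.5 and a two-sided exact permutation test over libraries. Positions and overlaps come from GENCODE 44 on hg38 and promoters from RefSeq, in which each of the 10 members matched. ARNTL, ARNTL2 and FBXL21 were matched as older symbols. The members and lists were chosen with earlier results of these data known. Named genes were all members, the 4 smallest adjusted p in each direction among called genes of each list, ABHD5, and genes overlapping a member that the table lists. Alternatives were other normalizations, filters, DESeq2, leaving out each library, and a replicate block. Limits of 3 counts cover counting error only, since reads carry no molecular identifiers. Some genes of the lists enter the counts and medians but are not reported here by name.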

Additional observations from a re-analysis of the deposited data

How the results depend on the processing

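Of 13 alternative settings, 5 put CLOCK past an adjusted p of 0.05, and no other core member passed in any. The number of core members called, 0, was 1 with upper-quartile normalization, library totals alone, at least 10 counts in every library and the replicate block, and 0 to 1 when any single library was left out. PER3, USP2, FOS, NPAS2, RORB, TEF, KLK2 and COL1A1 were among the genes with no value with at least 10 counts in every library. The number of other loop factors called, 3, was 5 with upper-quartile normalization and 5 on library totals alone, and 3 to 4 with a library left out. Enzymes called, 2, were 4 on library totals alone, 0 with DESeq2, 6 with the replicate block and 0 to 4 with a library left out. Coregulators called, 1, were 0 with upper-quartile normalization, on library totals alone and with at least 10 counts, 2 without a filter, 3 with DESeq2, 3 with the replicate block and 0 to 2 with a library left out. Resetting signal genes called, 7, were 9 without a filter and 9 with the replicate block, and 5 with DESeq2. They were 3 to 7 with a library left out. Outputs called, 2, were 1 with at least 10 counts and with DESeq2 and 1 to 2 with a library left out. The cause was not tested. All genes called, 3125, stayed within 2181 to 3537 and were 3537 with the replicate block. ABHD5 stayed past the threshold in 13 of 13 settings (0.81 to 1.06).

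With a library left out, the log2 fold change changed sign for ARNTL (-0.11 to 0.42) and PER3 (-0.075 to 0.47), and so did the log2 ratio differences of PER2 to PER3 (-0.32 to 0.44), NR1D1 to NR1D2 (-0.056 to 0.99), ARNTL to CLOCK (-0.37 to 0.065) and NR1D1 to ARNTL (-0.14 to 0.96); the other log2 fold changes of tested members and the ratios of PER1 to PER2, PER1 to PER3 and CRY1 to CRY2 kept their sign. Replicate numbers were not taken as pairs: after subtracting each condition's mean, libraries sharing a number correlated with r of -0.01, 0.23 and 0.09 across genes, and not every library correlated best with its own number; with the replicate block CLOCK had 0.35 (adjusted p = 0.0496, edgeR's quasi-likelihood test). Depth limits NR1D1, PER3 and ARNTL most, at 1 to 52 counts a library.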
